A study of Arabidopsis thaliana with 13 samples.

Results

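A set of 61 Arabidopsis thaliana genes stood higher at 6 h and at 12 h than at 0 h on 2-colour spotted cDNA arrays, out of 3689 genes with a name on the array. They were chosen on the deposited ratios themselves. A gene belonged to the set when its log2 ratio averaged at least 0.7 over both arrays of 6 h against 0 h, and at least 0.7 over 4 of the 5 arrays of 12 h against 0 h. The remaining array of 12 h, array 1, which the labels call single, took no part in the choice. Genes at 1 or more on both arrays of 36 h against 24 h, or at -1 or less on both, were dropped, and so were the cold genes COR47 and KIN2, the starch gene PWD, AT3G62550, the alpha-tubulin and ATG8 genes and the light-harvesting antenna genes. Every value at 6 h and 12 h is therefore a description of genes picked for being high there, and no test is attached to it.

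The series followed transcript levels over the day and in constant conditions. Each array set RNA from a later time against RNA from an earlier one: 6 h against 0 h on 2 arrays, 12 h against 0 h on 5, 18 h against 0 h on 2, and 24 h against 0 h, 36 h against 24 h, 36 h against 24 h in the dark, and 60 h against 48 h on 1 each. The plants of the 60 h array had days with 12 h of light until they were moved to continuous light, and their samples come from 24 h and 36 h later. The labels name no genotype, tissue or plant age, and of lists of root, flower, seed and green leaf markers the array measured 1 root and 1 leaf gene, too few to check a tissue. They give no light condition for the arrays other than those of 60 h and of 36 h in the dark. All values are log2 ratios of the later over the earlier time, centred on the median of the array, so that 1 means 2-fold. Ratios were read as channel 2 over channel 1, a direction that is likely but not stated in the labels. The other reading would turn every higher into lower. For array 2 of 6 h the title gives the times in the other order than the channel labels, and the channel labels were followed. Taking the title instead leaves 5 of the 61 genes in the set, so its membership rests on that reading. In bulk RNA, fewer cells of a type and less RNA per cell cannot be told apart.

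Many plant transcripts swing over the day under the joint control of light and of the circadian clock, an internal oscillator that goes on running in constant conditions. Chloroplasts rebuild chlorophyll and guard their membranes against oxidative damage during the light, while peroxidases and thiol enzymes of the cell handle reactive oxygen species. Microtubules, built from alpha- and beta-tubulin, guide the laying down of the cell wall in growing cells. Only 13 of the 61 genes have a symbol in the gene table, and the other 48 are given by their locus. Of these, AT5G64120 carries a peroxidase name among its synonyms and AT2G41090 stands on a list of calmodulin-like genes, and the rest are given without a function.

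At the thresholds, 210 named genes reached 0.7 at 6 h and 160 at 12 h, and 93 reached it at both. Over the 3648 named genes with a value on all arrays used, that is 2.55%. Of the 93, the 36 h arrays removed 30, of which 23 were high and 7 low on both, and 2 more were left out by name. IQD30 lay just inside the bound, at 0.72 for 6 h and 0.73 for 12 h, with AT3G07273 at 0.71 and 0.74 and AT5G01210 at 1.03 and 0.73. Just outside were AT5G01950 at 1.27 and 0.699, AT4G38550 at 0.79 and 0.698, and AT4G20320 at 0.696 and 0.89. The genes near the bound on either side differ by far less than the arrays of 1 comparison do. The plot of the means at 6 h against those at 12 h shows the set as the upper right corner of a single cloud.

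**Figure D1:**
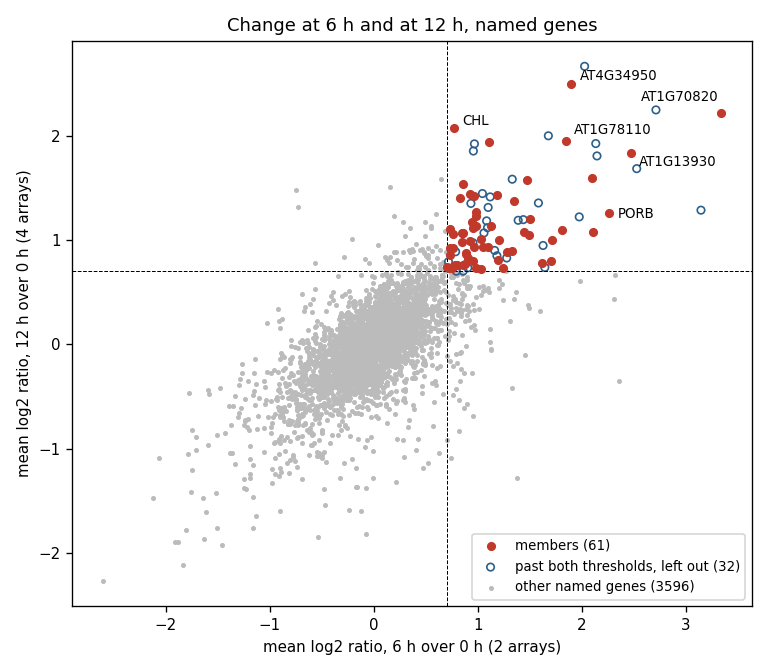
Mean log2 ratio of 6 h over 0 h (2 arrays, horizontal axis) against that of 12 h over 0 h (4 arrays, vertical axis) for 3689 named genes. Red points are the 61 members, open blue circles the 32 genes past both thresholds that were left out, grey points the other named genes, and dashed lines mark 0.7. AT1G70820 lies farthest right at 3.34 and AT4G34950 highest among the members at 2.50.

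The members PORB, CHL and PIFI act in the chloroplast. PORB (AT4G27440) encodes a protochlorophyllide oxidoreductase, the light-dependent enzyme of chlorophyll synthesis. PORB stood at 2.48 and 2.05 on arrays 1 and 2 of 6 h and at 1.47, 1.27, 1.13 and 1.19 on arrays 2 to 5 of 12 h, which average 2.26 ± 0.31 (SD, n = 2) and 1.26 ± 0.15 (SD, n = 4), or 4.80-fold and 2.40-fold. Both arrays of 6 h lay above all 4 of 12 h, and the arrays of 12 h lay close together. On the arrays of 18 h PORB stood at 1.16 and 1.28, level with 12 h, and at 24 h it was back at 0.09.

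CHL (AT3G47860), a lipocalin that protects chloroplast membrane lipids, had the opposite timing. It stood at 0.33 and 1.21 at 6 h and at 1.65, 2.39, 1.86 and 2.41 at 12 h, so that all 4 arrays of 12 h lay above both arrays of 6 h. Its mean at 12 h was 2.08 ± 0.38 (SD, n = 4), 4.21-fold, against 0.77 ± 0.62 at 6 h (SD, n = 2), 1.71-fold. The arrays of 18 h disagreed about CHL, at 0.32 and 1.98, and it was at -0.61 at 24 h. PIFI (AT3G15840), a chloroplast protein linked to electron flow in the dark after illumination, stood at 1.31 and 0.94 at 6 h, at 1.82, 0.78, 0.72 and 1.24 at 12 h and at 1.27 and 0.74 at 18 h. The ranges of PIFI at the 3 times overlapped, and at 24 h it stood at -0.09.

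Among peroxidases and thiol enzymes, PRXR1 (AT4G21960), a class III peroxidase, had 7 features on the array and stood at 1.37 and 1.33 at 6 h and at 1.76, 1.58, 1.16 and 1.01 at 12 h, that is 2.55-fold and 2.60-fold. AT5G64120, annotated as the peroxidase PRX71, stood at 0.88 and 1.49 at 6 h and at 1.29, 1.32, 1.61 and 1.52 at 12 h. Averaged over their features, both peroxidases were thus above 0.8 on every array that the choice used. Of the 2 features of AT5G64120, however, 1 had means of 0.38 at 6 h and 0.39 at 12 h. The other measured genes with a class III peroxidase name lay near or below 0. Prx37 (AT4G08770) had means of 0.20 at 6 h and -0.06 at 12 h, and AT5G66390 had -0.34 and -0.16. GSTU25 (AT1G17180), a glutathione transferase of the tau class, stood at 0.85 and 1.05 and at 0.74, 0.94, 1.01 and 1.77. GRXC2 (AT5G40370), a glutaredoxin, which reduces disulphides with glutathione, was uneven, at 1.45 and 0.26 at 6 h and 0.39, 0.92, 1.26 and 1.71 at 12 h. At 18 h, PRXR1 and GRXC2 each had 1 array near or under 0: PRXR1 stood at -0.25 and 0.76, GRXC2 at 0.76 and 0.01.

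The beta-tubulin genes TUB6 (AT5G12250) and TUB5 (AT1G20010) and the genes of 2 IQ-domain proteins, a plant family that binds calmodulin, formed another group. TUB6 stood at 1.01 and 0.88 at 6 h and at 1.54, 0.57, 0.95 and 1.61 at 12 h. TUB5 stood at 1.20 and 0.74 at 6 h and at 1.49, 0.76, 1.45 and 0.03 at 12 h, with array 5 near 0. The other measured gene with a beta-tubulin name, TUB9 (AT4G20890), was not chosen. Its mean of 0.55 at 6 h missed the bound, and its mean at 12 h was 1.13. Beta-tubulin genes resemble each other closely, and a cDNA feature can take up RNA of close relatives of its gene, here and in the other families.

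IQD28 (AT1G14380) stood at 0.99 and 1.43 at 6 h and at 1.17, 0.86, 0.74 and 1.22 at 12 h, IQD30 (AT1G18840) at 0.71 and 0.74 and at 0.87, 0.63, 0.89 and 0.54. IQD28 had the higher mean at both times. The other measured genes with an IQ-domain name were outside the set, with iqd21 (AT3G49260) at means of 0.38 and 0.07 and iqd32 (AT1G19870) at -0.33 and -0.17. Of the 4 measured genes with a tau-class glutathione transferase name, GSTU25 alone was chosen. GSTU26 (0.66 at 6 h and 0.64 at 12 h), GSTU21 (0.63 and 0.50) and GSTU27 (0.02 and 0.06) fell short. These comparisons within families were drawn up after the members were known. Families were taken by symbol or synonym, so measured genes without such a name can be missing from them.

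The last named group handles DNA and proteins. ICU2 (AT5G67100), the catalytic subunit of DNA polymerase alpha, stood at 1.01 and 0.91 at 6 h but at -0.11, 1.88, 0.89 and 3.04 at 12 h. Its arrays of 12 h ran from under 0 to more than 3, so that its mean of 1.42 ± 1.35 (SD, n = 4) has little precision. MAP1C (AT1G13270), a methionine aminopeptidase, which removes the first residue of new proteins, stood at 0.93 and 0.79 at 6 h and at 1.26, 1.32, 1.54 and 2.03 at 12 h, with all 4 arrays of 12 h above both of 6 h. SERPIN1 (AT1G47710), a protease inhibitor, stood at 1.22 and 0.74 and at 1.83, 1.16, 1.16 and 0.40. The other measured gene with a methionine aminopeptidase name, AT3G25740, was at 0.08 at 6 h and -0.25 at 12 h.

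**Figure D2:**
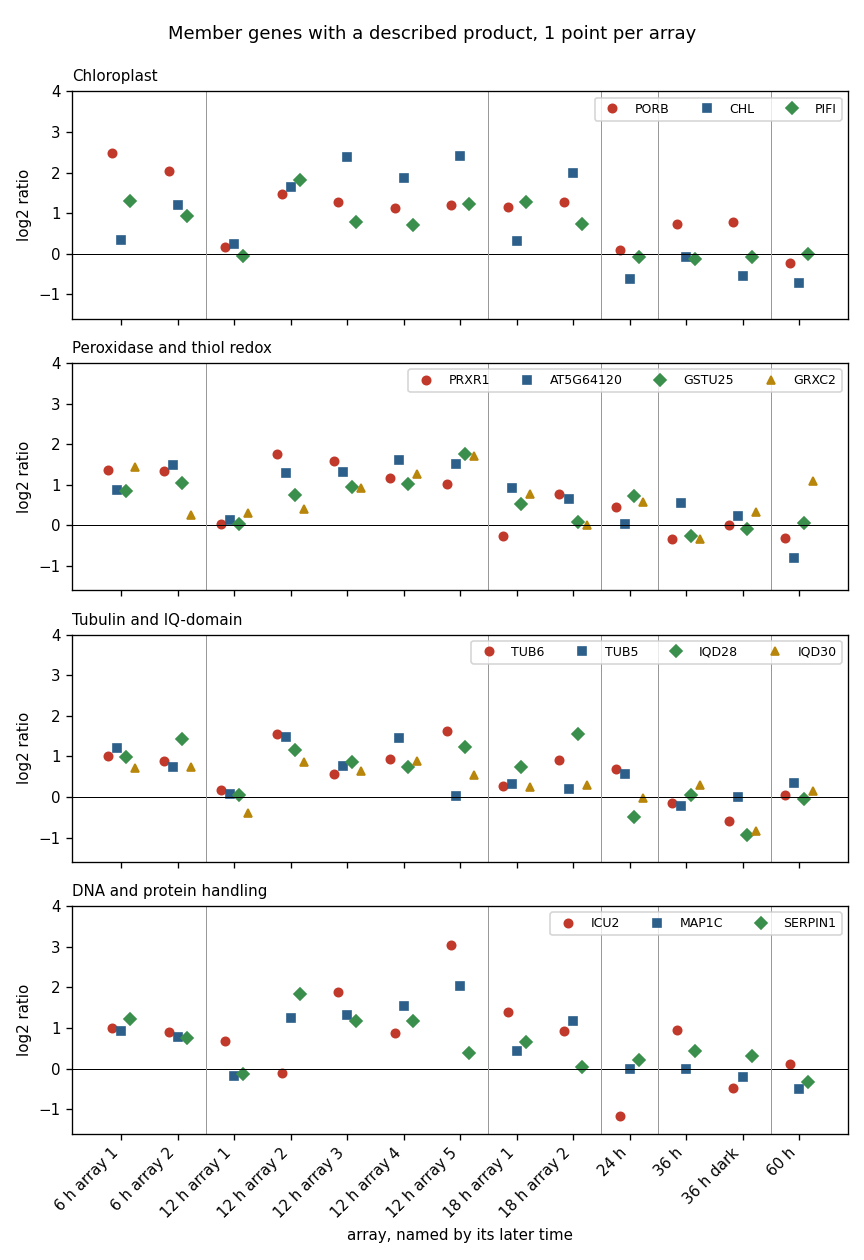
Log2 ratio of the later over the earlier time (vertical axis) on each of the 13 arrays (horizontal axis, named by the later time) for the 13 members with a symbol and AT5G64120, grouped by product. Each point is 1 array. The genes lie mostly above 0 on the arrays of 6 h and on arrays 2 to 5 of 12 h, close to 0 on array 1 of 12 h, and scattered about 0 from 24 h on.

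Among the loci without a symbol, AT1G70820 had the largest change at 6 h, at 4.44 and 2.24 on the 2 arrays (10.1-fold on average), and stood at 0.62, 2.53, 2.23 and 3.52 at 12 h. AT4G34950 was highest at 12 h, at 0.70, 2.66, 2.19 and 4.45 (5.66-fold on average), after 2.76 and 1.04 at 6 h. In both genes the arrays of 1 comparison lay far apart. AT1G78110 stood at 1.68 and 2.02 at 6 h and at 1.03, 2.06, 2.11 and 2.62 at 12 h. AT1G21380 was steadier, at 1.65 and 1.29 at 6 h and 1.42, 1.71, 1.50 and 1.70 at 12 h. AT1G13930, with 3 features, stood at 3.79 and 1.16 at 6 h and at 2.51, 1.30, 1.75 and 1.80 at 12 h. AT5G62350 stood at 2.80 and 1.40 at 6 h and at 2.22, 1.03, 1.11 and 2.02 at 12 h. In these last 2 genes array 1 of 6 h was far above array 2.

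AT4G14230 stood at 2.07 and 0.94 at 6 h and at 0.92, 1.55, 1.74 and 0.61 at 12 h. AT2G41090 stood at 1.55 and 0.68 at 6 h and at 1.48, 2.02, 2.41 and 1.85 at 12 h. AT1G27930 stood at 2.07 and 1.54 at 6 h and at 0.32, 1.52, 1.17 and 1.38 at 12 h. AT2G41090 leaned to 12 h and AT1G27930 to 6 h. AT1G19370 stood at 1.49 and 1.40 at 6 h and at 0.99, 1.66, 0.61 and 1.04 at 12 h. AT1G73600 stood at 2.18 and 2.04 at 6 h, but its place in the set rested on array 5 of 12 h, where it was at 3.05, against 0.53, 0.57 and 0.18 on arrays 2 to 4. Without array 5 its mean at 12 h was 0.43. AT1G56300 stood at 1.53 and 1.90 at 6 h and at 1.74, 0.41, 0.68 and 1.19 at 12 h, AT3G28940 at 0.68 and 0.98 and 0.71, 1.16, 1.09 and 2.68. AT1G52780 stood at 0.98 and 0.98 at 6 h and at 1.09, 1.61, 1.43 and 0.97 at 12 h. AT1G28600 had means of 1.10 ± 0.12 at 6 h and 0.93 ± 0.21 at 12 h, and AT1G67300 of 0.74 ± 0.95 and 1.11 ± 0.39 (SD, n = 2 and n = 4). In the 24 members with only a locus that led at no time, means ran from 0.71 in AT3G07273 to 1.71 in AT4G26130 at 6 h, and from 0.73 in AT5G01210 to 1.44 in AT5G51570 at 12 h.

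Over the whole set, medians were 1.12 and 0.98 on the arrays of 6 h and 0.92, 0.98, 1.01 and 1.22 on arrays 2 to 5 of 12 h. Of the 61 genes, 57 were above 0 on all 6 of these arrays, where 10.4% of named genes were, and 31 were at 0.5 or more on all 6, where 1.45% of named genes were. The choice itself fixes these counts in large part. The exceptions below 0 were AT1G27200 on array 1 of 6 h (-0.17) and AT3G02460 (-0.08), AT3G23740 (-0.78) and ICU2 (-0.11) on array 2 of 12 h. Whichever of the 6 arrays was left out, 31 genes stayed at 0.7 or more in both means, while 30 came under it without some array, 21 through 6 h and 17 through 12 h. The later time was in each channel on as many arrays, so that a dye effect equal on all arrays cancels in both means. Within each ScanAlyze version the channels were not balanced. A dye effect that differs between versions would not cancel, and its part in the means was not tested. The arrays read with ScanAlyze 2.44 had medians of 1.12 at 6 h and 0.92 at 12 h, and those read with ScanAlyze 2.33 had 0.98 at 6 h and 0.98 to 1.22 at 12 h.

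**Figure D3:**
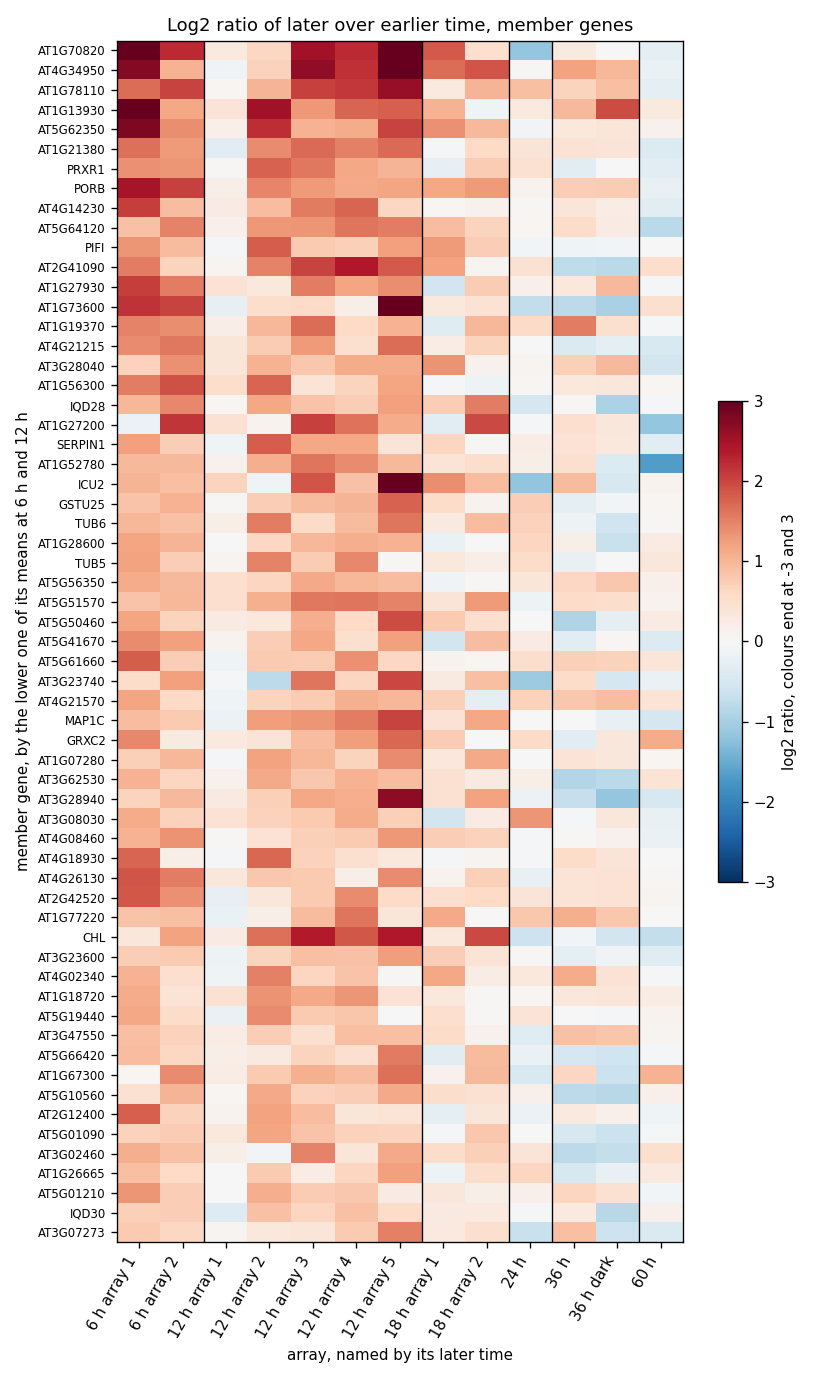
Log2 ratio of the later over the earlier time for each of the 61 members (rows, from the highest to the lowest by the smaller of the means at 6 h and 12 h) on each of the 13 arrays (columns, black lines between comparisons). Red is higher and blue lower at the later time, and colours end at -3 and 3. The block of red covers the arrays of 6 h and arrays 2 to 5 of 12 h, and array 1 of 12 h stands out as pale.

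The members split almost evenly in timing, with the larger mean at 6 h in 33 genes and at 12 h in 28. Both arrays of 6 h lay above all 4 of 12 h in PORB, AT1G27930, AT4G26130 and AT5G41670, which is 4 genes or 6.56% of the set, where 4.96% of named genes did so. All 4 arrays of 12 h lay above both of 6 h in CHL, MAP1C and AT5G51570, which is 3 genes or 4.92%, where 5.89% of named genes did so. In the other 54 members the arrays of the 2 times overlapped. AT4G26130 stood at 1.88 and 1.53 at 6 h and at 0.82, 0.79, 0.19 and 1.42 at 12 h, AT5G51570 at 0.86 and 0.99 and at 1.08, 1.58, 1.60 and 1.50. The means differed by 0.5 or more toward 6 h in 10 genes and toward 12 h in 6. A mean of at least 1 was reached by 28 genes at 6 h, by 32 at 12 h and by 18 at both.

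A gene could have several cDNA features, and 17 members had 2 or more. Of their 41 features, 39 had both means above 0 and 27 had both at 0.7 or more. All features passed on their own for PRXR1, PORB, PIFI, AT1G13930 and AT3G62530. The 7 features of PRXR1 ran from 0.76 to 1.73 at 6 h and from 0.84 to 1.67 at 12 h, and the 2 of PORB from 2.04 to 2.49 and from 0.76 to 1.77. Features disagreed at 6 h for AT5G01090, where they gave -0.10 and 1.56, for AT1G07280, with -0.04 and 1.74, for AT5G64120, with 0.38 and 1.98, and for AT4G18930, with 0.40 and 1.51. The same genes disagreed at 12 h, with 0.10 and 1.61 for AT5G01090 and 0.25 and 1.88 for AT1G07280. AT5G64120 had 0.39 and 2.48 there, and AT4G18930 had 0.35 and 1.25. At 12 h features also gave 0.40 and 1.77 for AT1G73600, 0.35 and 1.75 for AT4G21215, and 0.41 to 1.13 over the 3 features of AT5G01210. Of the 2 features of IQD30, 0 passed on their own, with 0.53 and 0.91 at 6 h and 0.83 and 0.64 at 12 h in the same order.

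The array of 12 h titled single repeated the comparison without taking part in the choice. On it the members had a median of 0.11 and ran from -0.39 in IQD30 to 0.68 in ICU2, and 41 of 61 were above 0, where 52.9% of all named genes were. The 4 other arrays of 12 h had member medians of 0.92 or more. PORB stood at 0.17 on the single array, CHL at 0.24, PRXR1 at 0.03, AT1G70820 at 0.30 and AT4G34950 at -0.11. The array had a narrow spread over all features, with an SD of 0.382 against 0.626 to 0.858 on the other 12 arrays. Its correlations (r) with arrays 2 to 5 of 12 h were -0.007, -0.05, 0.06 and 0.02. Those 4 arrays had r of 0.13 to 0.57 with each other. Pairs with the later time in the same channel had the higher values, 0.53 for arrays 2 and 4 and 0.57 for arrays 3 and 5. Pairs with opposite channels had 0.13 to 0.36, so the likeness of these arrays goes with channel order. The part of the single array's narrow spread and low correlations in the members' values was not tested. With a coefficient of its own in a limma fit over all targets, this array gave 0 calls among the 61 members, with a lowest adjusted p of 0.996, where 0.00886% of 11283 targets were called. At an unadjusted limma p under 0.05 there were 0 members, where 1.94% of targets were.

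The arrays of 18 h and 24 h share their 0 h time with the arrays used for the choice, so their values can be alike through 0 h alone. Both 18 h arrays also carry the later time in channel 1, like 6 h array 2 and 12 h arrays 3 and 5. With these, r was 0.56, 0.60 and 0.52 for 18 h array 2. With the choosing arrays of opposite channel order, 6 h array 1 and 12 h arrays 2 and 4, it was 0.08, 0.12 and -0.02. For 18 h array 1 the same values were 0.10 to 0.17 and 0.17 to 0.25, without this split. How far channel order enters the members' values at 18 h was not tested. At 18 h the members had medians of 0.34 and 0.52 on the 2 arrays, where all named genes had -0.01 and -0.03. PORB had the largest value relative to its error, at 1.17 ± 0.36 (SE, n = 2 arrays, limma with a dye term, adjusted p = 0.638), followed by IQD28 at 0.94 ± 0.35 (adjusted p = 0.754), PIFI at 0.999 ± 0.44 and AT5G62350 at 1.25 ± 0.56 (both adjusted p = 0.823). IQD28 stood at 0.74 and 1.55 on the arrays, and without array 2 of 18 h its fitted value was 0.54. AT4G34950 was the highest on average, at 1.67 and 1.88 on the arrays. AT3G08030 at -0.54 and 0.25, AT1G56300 at -0.05 and -0.16 and AT1G28600 at -0.21 and -0.01 were the lowest. Of the 61 members 0 passed by limma at an adjusted p under 0.05, where 0.0% of 11290 targets did. An unadjusted p under 0.05 was found in 4 members (6.56%), where 5.99% of targets had one. This fit pooled array 1 of 12 h with arrays 2 to 5, which chose the members, so the gap between them adds to the members' spread. In limma without array 1 of 12 h, 0 members passed, with a lowest adjusted p of 0.136. There 8 had an unadjusted p under 0.05. The share over all targets is not at hand for that fit, so this count cannot be set against the 5.99% above. The arrays of 18 h disagreed on single genes such as CHL and AT1G27200, the last at -0.34 and 1.98.

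At 24 h against 0 h, a whole day apart, the members lay near 0 on the array, with a median of 0.05 and a range of -1.17 to 1.32. Named genes had a median of 0.04. AT3G08030 was highest at 1.32, followed by AT1G78110 at 0.90 and AT1G77220 at 0.82. AT1G70820, the gene with the largest change at 6 h, was among the lowest at -1.17, as were ICU2 at -1.17 and AT3G23740 at -1.10. With the dye term of the fit the median of the members was 0.24, and without it 0.05. With the dye term but without array 1 of 12 h in the fit it was 0.12. The small shift above 0 thus depends on that term and on that array. AT3G08030 stood at 1.26 ± 0.41 in the fit (SE, 1 array, limma adjusted p = 0.9998). Of the 61 members 0 passed, where 0.0177% of 11273 targets did. An unadjusted limma p under 0.05 was found in 1 member (1.64%), where 3.22% of targets had one.

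The array of 60 h against 48 h in continuous light also spans 12 h, after the move to continuous light, and shares no RNA time with the arrays of the choice. The members had a median of -0.02 on it, as named genes had -0.01, and 28 of 61 were above 0, where 48.3% of named genes were. In the fit with the dye term the median was 0.07, against -0.05 for named genes, and 37 of 61 were above 0, where 44.5% of named genes were. The side of 0 on which most members lie thus depends on that term. The term comes from the arrays of 6 h and 12 h, and the spread from all arrays. Fitted values and p-values at 60 h therefore draw in part on the arrays of the choice. With the dye term but without array 1 of 12 h in the fit, the median of the members was -0.06. GRXC2 at 1.10, AT1G67300 at 1.05 and AT2G41090 at 0.53 were the highest. AT1G52780 at -1.68, AT1G27200 at -1.17 and AT5G64120 at -0.81 were the lowest, and the features of AT5G64120 disagreed, at -2.05 and 0.43. PORB stood at -0.22, CHL at -0.71, PRXR1 at -0.31, MAP1C at -0.50 and TUB5 at 0.35. In the fit, AT1G67300 stood at 1.49 ± 0.45 (SE, 1 array, limma adjusted p = 0.359) and AT1G52780 at -1.54 ± 0.48 (adjusted p = 0.400), and at -2.38 with arrays scaled to 1 spread. Of the 61 members 0 passed, where 0.585% of 11104 targets did. An unadjusted limma p under 0.05 was found in 2 members (3.28%), 1 in each direction, where 5.45% of targets had one. Whether the change of these genes from 48 to 60 h differs from that of 0 to 12 h was not tested, since the second was used to choose them.

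The 2 arrays of 36 h against 24 h were used to drop genes, so the members hold none that lay at 1 or more, or at -1 or less, on both. Within these limits the medians were 0.12 in the dark and 0.31 on the array without a stated light condition. On both arrays 29 genes were above 0, where 34.4% of named genes were, and 17 were below 0, where 39.9% were. The named genes were not filtered by these arrays as the members were, so these shares are over unlike sets. AT1G13930 stood at 1.96 in the dark and 0.97 on the other array. AT4G34950 stood at 0.99 in the dark and 1.22 on the other array. PORB stood at 0.77 in the dark and 0.74 on the other array. These 3 genes were high on both arrays. AT1G19370 stood at 0.47 in the dark and 1.55 on the other array, and AT4G02340 at 0.43 in the dark and 1.11 on the other array. At the low end, AT3G28940 stood at -1.16 in the dark and -0.70 on the other array, and AT1G73600 at -0.98 in the dark and -0.79 on the other array. AT3G62530, at -0.82 in the dark and -0.87 on the other array, was also low on both, while AT5G50460 stood at -0.28 in the dark and -0.90 on the other array. Both IQ-domain genes were below 0 in the dark and above 0 on the other array, with IQD28 at -0.94 in the dark and 0.04 on the other array and IQD30 at -0.82 in the dark and 0.30 on the other array.

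**Figure D4:**
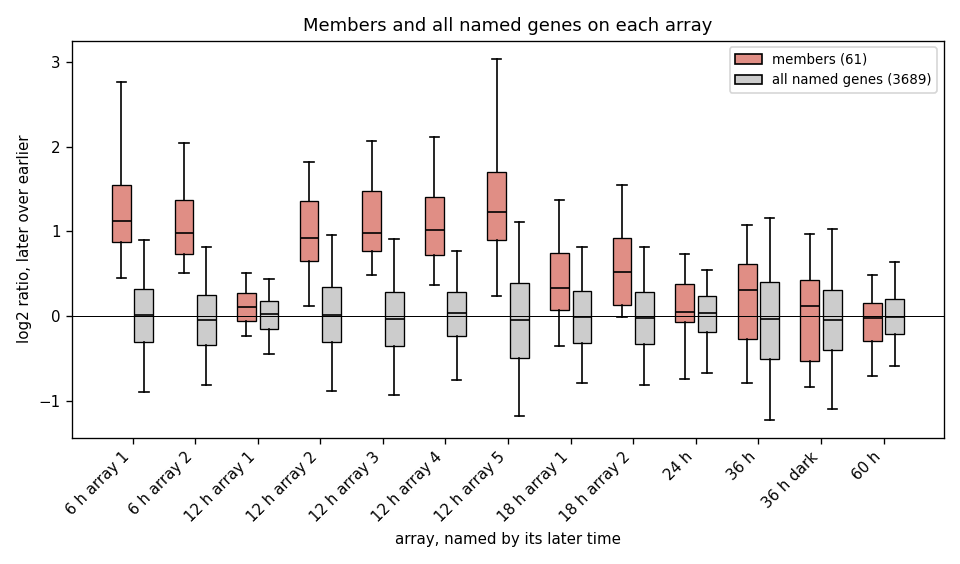
Log2 ratio of the later over the earlier time (vertical axis) on each array (horizontal axis) for the 61 members (red, left of each pair) and all 3689 named genes (grey, right). Boxes span the quartiles with the median as a line, and whiskers end at percentiles 5 and 95. The members stand well above the named genes on the arrays that chose them, less so at 18 h, and about level with them on array 1 of 12 h and at 24 h and 60 h.

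The genes were spread over all 5 chromosomes, with 22 of 984 named genes of chromosome 1 (2.24%), 3 of 508 of chromosome 2 (0.591%), 11 of 750 of chromosome 3, 10 of 543 of chromosome 4 and 15 of 898 of chromosome 5 (1.67%). No 2 members were direct neighbours in the TAIR10.1 gene table. The closest pairs were AT5G01090 and AT5G01210, with 11 protein-coding genes between them, and AT1G18720 and IQD30, with 12. Of 12 gene lists with 122 loci, 17 loci were measured and 2 were members. These were CHL, on a list of lipocalin and xanthophyll cycle genes, whose other measured gene, the lipocalin gene TIL (AT5G58070), reached 0.91 at 6 h but 0.54 at 12 h, and AT2G41090, on a list of calmodulin and calmodulin-like genes, whose other measured gene, AT1G66400, stood at -0.18 and 0.40. The list of lipocalins thus has 1 of 2 measured genes in the set. On the list of cold, dehydration and abscisic acid genes 4 of 23 were measured and 0 were members, since KIN2 and COR47 were left out by name and LTI30 (0.84 at 6 h and 0.48 at 12 h) and TIL missed the bound. Lists of dawn clock, evening clock, starch breakdown and aquaporin genes had 0 measured loci, and the lists of heat shock proteins, cell wall loosening, leucine breakdown, Calvin cycle enzymes and RCI2 membrane proteins had 0 members. The 1 measured RCI2 gene, AT4G30660, stood at 2.15 at 6 h and 1.81 at 12 h and was dropped through the arrays of 36 h.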

How the data were processed

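RNA of 2 times was compared on each of 13 arrays of 12800 features. The authors deposited 1 value per feature and array, taken as a log2 ratio. Per the labels, the arrays were read with ScanAlyze 2.33, 2.42 or 2.44, while background correction, normalization and ratio direction are not given in the sources used here. Base 2 was read from the values: that of a ratio of 1/2 occurs 159 times in log2, against a mean of 20.4 at neighbouring steps.

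The platform annotation gave 5197 features a single gene, 214 several and left 7389 unlisted, and the TAIR10.1 gene table matched 5190 of the 5197. Each array's median was subtracted, and ratios were turned to later over earlier and averaged per gene, which gave 3689 named genes among 11292 targets. Targets with values on at least 10 arrays were fitted with limma 3.58.1 in R 4.3.3, with 1 coefficient per pair of times, a dye term for the channel of the later time and 1 spread per target over all arrays; adjusted p-values are Benjamini-Hochberg over all targets, called under 0.05. Comparisons with 1 array assume that it varies like the others. The single array had a coefficient of its own only in the fit behind its own test. In the fit for the other comparisons it was pooled with the other arrays of 12 h. The dye term comes from the arrays of 6 h and 12 h. Of the titles 3 carry the word biological, but no label names separate cultures, so the spread behind the p-values may be technical. The fit was tested on simulated data. Alternatives were no dye term or one more for ScanAlyze 2.33, no centring, scaled arrays, complete values only, medians of features, array 2 of 6 h turned, and each replicate array left out.

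The members and gene lists were chosen with earlier results of these data known. All members may be named. Described array by array are the 15 with the largest smaller mean, those on a gene list or called, and the 3 highest and lowest at 18, 24, 36 (each array) and 60 h. Genes with a symbol were added to these after their values were seen. Lists by gene description and promoter motifs were planned but not used here, as the tables used hold neither. No files give depth; the number of arrays limits the precision.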

Additional observations from a re-analysis of the deposited data

Results flagged for a closer look

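An array was taken as standing apart when its gap to the nearest of the other 4 arrays of 12 h against 0 h was over 0.71 of their whole range, which chance gives in about 1 of 20 sets of values that were not chosen by their size. Here arrays 2 to 5 chose the members for being high and array 1 took no part, so array 1 is low by selection in part and that rate does not apply to it. Of 32 sets tried, 5 had such an array, and in 4 it was array 1, titled single. It was the lowest for the median over the members (0.108), AT1G21380 (-0.325), PORB (0.172) and AT5G64120 (0.141). For AT1G73600 array 5 was the highest (3.05).

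On the arrays of 36 h against 24 h, 10 of the 31 members described array by array had opposite signs, as had IQD30 (-0.82 and 0.30) and MAP1C (-0.21 and 0.001), which the report adds. Over all 61 members, 11 were below 0 in the dark and above 0 on the other array, where 13.3% of named genes were. The reverse was found in 4, where 12.3% of named genes had it. The share with opposite signs is thus near that of named genes, which were not filtered by these arrays. The difference was not tested, since each condition has 1 array and both were used to choose the genes. Values in the dark and without a stated light condition were -0.482 and 0.952 for ICU2, -0.644 and 0.618 for AT1G67300, -0.527 and 0.54 for AT3G23740, -0.421 and 0.47 for AT1G52780, -0.676 and 0.173 for AT1G28600, -0.023 and 0.279 for AT1G70820, and -0.941 and 0.039 for IQD28. They were 0.333 and -0.331 for GRXC2, 0.0143 and -0.335 for PRXR1, and 0.335 and -0.068 for AT3G08030.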

How the results depend on the processing

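The number of genes that the rule keeps, 61, was 93 with no gene left out by name or by the arrays of 36 h, 18 with a threshold of 1, and 5 with array 2 of 6 h turned as its title reads. It was 44 with the single array in the mean of 12 h, 65 without centring, 64 with arrays scaled to 1 spread, 61 with the median of features (60 of them members), and 52 to 72 when 1 of the 6 arrays was left out. Without array 2 of 6 h, which leaves array 1 alone, the median of the members at 6 h was 1.12; it ran from 0.983 to 1.12 and that of 12 h from 0.952 to 1.04 when an array was left out. Members called at 18 h, 24 h and 60 h were 0 in each of 17 settings, and on the single array 0 in each of 16; the lowest adjusted p of a member in any of them was 0.136 at 18 h, 0.222 at 24 h, 0.0524 at 60 h (with arrays scaled to 1 spread) and 0.295 on the single array. The signs of the 7 leading members at these times held in all settings. They were PORB and IQD28 at 18 h and AT3G08030 and GSTU25 at 24 h. The rest were AT1G67300 and AT1G52780 at 60 h and ICU2 on the single array. Except at 18 h, no setting left out the 1 array behind the value, so those signs could hardly change. No paired analysis was possible because the labels number no replicates shared between comparisons.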
